A study of Mus musculus with 18 samples.

Results

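The mRNA of *Acod1*, the gene of the itaconate-making enzyme, and of 8 enzymes of the tricarboxylic acid (TCA) cycle was followed in cells of an established mouse macrophage line, marked WT in the authors' files. The 9 genes were *Acod1*, *Cs*, *Idh3a*, *Ogdh*, *Suclg1*, *Sdha*, *Sdhb*, *Fh1* and *Mdh2*, taken by their symbols from 56748 listed genes. The TCA cycle runs in mitochondria and oxidises acetyl groups from pyruvate, fatty acids and amino acids, passing electrons to the respiratory chain. ACOD1 draws carbon from the cycle into itaconate, and it is known for its strong induction in activated macrophages. Itaconate inhibits succinate dehydrogenase, the enzyme whose catalytic subunits are encoded by *Sdha* and *Sdhb*, and it modifies KEAP1, the inhibitor of the transcription factor NRF2.

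There were 18 libraries of poly(A) RNA, 3 biological replicates for each of 6 conditions. Control cells were left untreated. TBHQ cells received the phenolic antioxidant tert-butylhydroquinone, an activator of NRF2, at 5 µM for 4 h and were taken at the end of it. LPS cells received bacterial lipopolysaccharide at 0.1 µg/mL for 12 h, and PIC cells received Poly(I:C), a mimic of viral double-stranded RNA, at 20 µg/mL for 12 h. LPS+TBHQ and PIC+TBHQ cells received TBHQ for 4 h and then the stimulus for 12 h, so the TBHQ condition and the stimulated conditions also differed in the time at harvest. The study's timeline gives the control, like the stimuli, 12 h, so TBHQ alone and the control may differ in hours in culture too. TBHQ was dissolved in DMSO, and no vehicle is named for the control or for the cells given LPS or PIC alone. Whether LPS and PIC cells also waited 4 h before the stimulus is not stated. LPS+TBHQ and PIC+TBHQ cells may therefore differ from them in solvent and in hours in culture as well as in TBHQ. Depth was 14423390 to 18851626 counts per library. The line was checked against 8 macrophage marker genes, all of which had counts in every library, while 8 markers of T, B, NK, epithelial, fibroblast and endothelial cells summed to at most 6 counts in a library.

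*Acod1* (ENSMUSG00000022126, chromosome 14, 103284413 to 103294009 on the plus strand in the authors' files) was read in FPKM, the fragments counted on a gene scaled by its length and the library total, and in the deposited values by a further factor of each library (0.943 to 1.12). That factor differs between the conditions, so small differences between conditions in FPKM depend on it, and the edgeR tests below use the counts. Control libraries held 65.3, 48.8 and 47.2 FPKM, and TBHQ libraries held 103, 97.3 and 95.1. LPS libraries held 946, 888 and 883 FPKM, and LPS+TBHQ libraries held 838, 819 and 829. Every library with a stimulus stood above every library without one, and the TBHQ libraries stood above the controls with no overlap. PIC libraries held 1992, 2067 and 2011 FPKM, and PIC+TBHQ libraries held 1651, 1616 and 1595. The order of the conditions was control, TBHQ, LPS+TBHQ, LPS, PIC+TBHQ and PIC, and no neighbours in that order overlapped. The control spread was the widest in relation to its mean, 53.8 ± 10.02 FPKM (SD, n = 3), because control replicate 1 lay above the other controls.

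**Figure D1:**
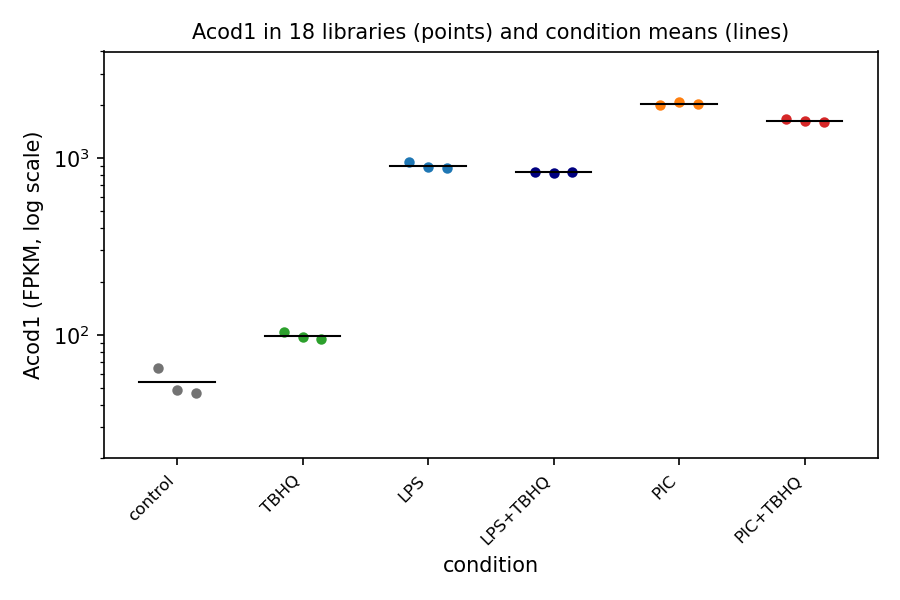
*Acod1* in FPKM on a log axis in each of the 18 libraries (points, 3 per condition) with the mean of each condition (lines). The PIC libraries lie between 1992 and 2067 FPKM and the controls between 47.2 and 65.3.

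Against the control, *Acod1* mRNA was 16.8-fold higher with LPS (log2 fold change 4.07 ± 0.06 SE, FDR 1.07e-33) and 37.3-fold higher with PIC (5.22 ± 0.07, FDR 1.08e-36) in edgeR's quasi-likelihood test. Both comparisons share the control libraries. At the study's threshold, an FDR below 0.01 and a log2 fold change beyond 2, *Acod1* was the 1 gene of the 9 to pass in each, where 1.34% of the 13691 genes tested passed as higher with LPS and 2.70% with PIC. *Acod1* ranked 47 and 48 from the top of those genes by log2 fold change. The direct comparison of the stimuli gave 1.15 ± 0.06 (FDR 1.97e-18), or 2.22-fold more *Acod1* with PIC than with LPS. In bulk RNA, more cells that express a gene and more RNA per cell cannot be told apart, and the same holds for a fall.

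TBHQ alone was followed by 1.83-fold more *Acod1* mRNA (log2 fold change 0.88 ± 0.06, FDR 7.63e-14). Given before a stimulus, TBHQ went with less *Acod1*. The gene fell by 19.3% in PIC+TBHQ against PIC (−0.31 ± 0.05, FDR 2.69e-05), with all 3 libraries below all 3 PIC libraries. In LPS+TBHQ against LPS the estimate was −0.13 ± 0.05 with an FDR of 0.0841, which missed the threshold of 0.05 although the libraries did not overlap. It passed in 3 other settings, with the replicate number as a block (FDR 0.0431), without a filter on low counts (FDR 0.000583) and with the compared conditions fitted alone (FDR 0.00296). The TBHQ effect with PIC minus that with LPS was −0.18 ± 0.08 (95% interval −0.34 to −0.02, FDR 0.264), so a difference between the stimuli was not called. The difference was called without the filter (FDR 0.000117) and with the compared conditions alone (FDR 0.0035).

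Beside the TCA enzymes, *Acod1* went from below to above their summed level. Its FPKM was 0.105 to 0.142 times the summed FPKM of the 8 TCA members in the control libraries and 0.202 to 0.228 times with TBHQ. The ratio rose to 2.17 to 2.37 in LPS and 4.90 to 5.16 in PIC libraries, and it was 1.89 to 1.98 in LPS+TBHQ and 3.73 to 3.82 in PIC+TBHQ libraries. *Acod1* was below the sum of the cycle's members in all unstimulated libraries and above it in all stimulated ones. By FPKM it ranked 752 to 1090 among all genes in the controls and 429 to 481 with TBHQ. It ranked 31 to 34 with LPS, 29 to 32 with LPS+TBHQ, 13 in each PIC library and 14 to 15 with PIC+TBHQ. A rank also moves with the other genes.

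The 8 TCA members were moderately expressed and moved little in comparison. Their condition means ran from 22.0 FPKM for *Suclg1* with LPS to 123 FPKM for *Mdh2* with TBHQ. The highest condition mean was 1.38 times the lowest for *Idh3a*, 1.36 times for *Fh1*, 1.34 times for *Cs* and 1.07 times for *Suclg1*. The same ratio was 37.6 for *Acod1*. All 9 genes passed the filter on low counts.

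*Cs* encodes citrate synthase, which joins acetyl-CoA to oxaloacetate at the entry of the cycle. Control libraries had 70.3, 70.5 and 71.3 FPKM and TBHQ libraries 78.5, 81.5 and 81.9. LPS libraries had 60.0, 59.6 and 60.9, and LPS+TBHQ libraries 70.5, 68.8 and 71.2. PIC libraries had 61.2, 63.9 and 68.7, and PIC+TBHQ libraries 71.6, 67.7 and 68.5. TBHQ libraries were the highest, and LPS and PIC libraries lay below the controls.

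*Idh3a* encodes the catalytic subunit of the NAD-dependent isocitrate dehydrogenase. Control libraries held 33.4, 33.6 and 33.3 FPKM of it, LPS libraries 24.7, 25.4 and 26.4, and LPS+TBHQ libraries 27.6, 30.05 and 27.9. PIC libraries held 23.2, 24.3 and 25.0, and PIC+TBHQ libraries 27.0, 26.1 and 27.3. All stimulated libraries lay below the controls, and those given TBHQ first lay above those given the same stimulus alone. *Ogdh* encodes the E1 subunit of the oxoglutarate dehydrogenase complex. It stood at 45.7, 45.3 and 46.3 FPKM in control libraries, 42.6, 43.0 and 43.5 in LPS libraries and 49.8, 49.3 and 48.8 in LPS+TBHQ libraries. It stood at 40.1, 42.0 and 44.2 FPKM in PIC libraries and 50.2, 46.8 and 48.1 in PIC+TBHQ libraries. For *Ogdh* the libraries given a stimulus alone were below the controls. *Suclg1*, the alpha subunit of succinyl-CoA ligase, ranged from 21.5 to 24.3 FPKM over all libraries.

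*Sdha* and *Sdhb* encode the flavoprotein and iron-sulfur subunits of succinate dehydrogenase. *Sdha* had 76.7, 75.1 and 75.4 FPKM in control libraries, 63.7, 63.5 and 61.8 in LPS libraries and 60.5, 62.7 and 62.7 in LPS+TBHQ libraries. It had 60.5, 61.0 and 64.8 FPKM in PIC libraries and 60.0, 62.4 and 61.5 in PIC+TBHQ libraries. The stimulated libraries were all below the controls, and those with and without TBHQ overlapped. *Sdhb* ranged from 48.4 to 52.4 FPKM in the controls, 42.9 to 43.8 with LPS and 40.0 to 46.4 with PIC. *Fh1* encodes fumarase, which hydrates fumarate to malate. Control libraries held 40.4, 38.4 and 40.3 FPKM, LPS libraries 29.1, 29.8 and 30.3, and LPS+TBHQ libraries 31.9, 32.0 and 32.1. PIC libraries held 27.8, 30.3 and 29.7 FPKM, and PIC+TBHQ libraries 30.8, 31.0 and 30.6. The stimulated *Fh1* libraries formed a low set apart from the controls. *Mdh2*, the mitochondrial malate dehydrogenase that closes the cycle, ranged from 107 to 126 FPKM over all libraries.

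**Figure D2:**
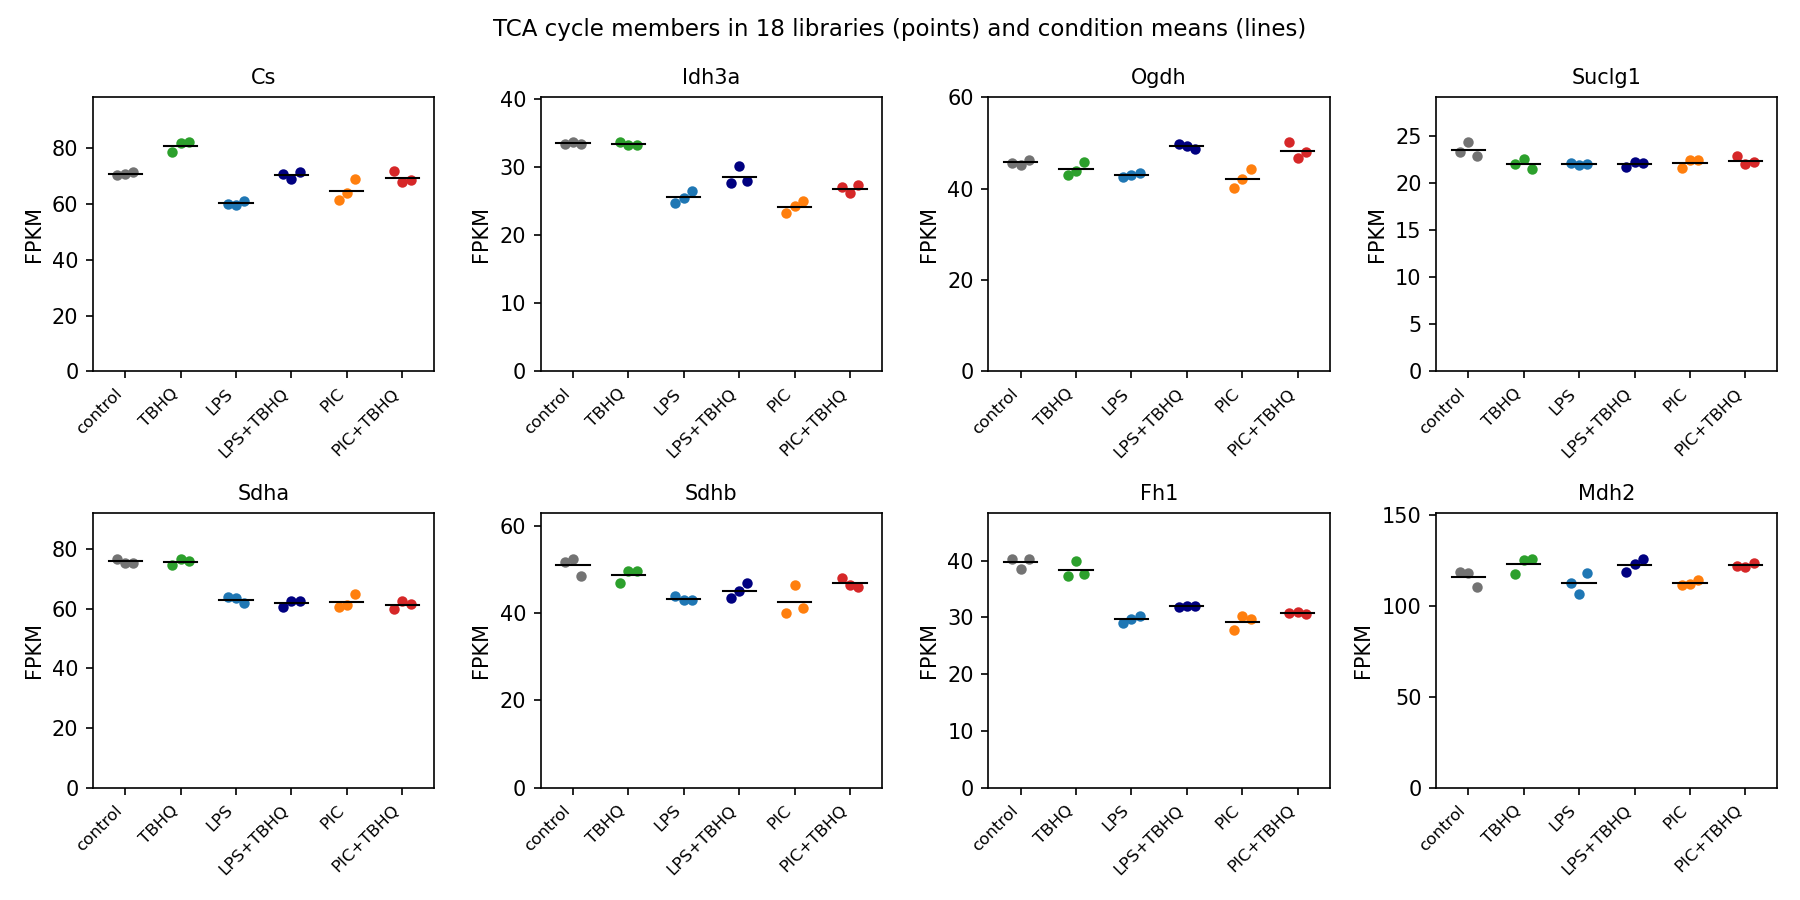
FPKM of the 8 TCA cycle members in each of the 18 libraries (points, 3 per condition) with condition means (lines), each gene on its own axis from 0. *Idh3a*, *Suclg1*, *Sdha*, *Sdhb* and *Fh1* are lower in every stimulated library than in any control, and the condition means of *Suclg1* and *Mdh2* vary least.

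With LPS against the control, 7 of the 8 TCA members fell and 0 rose at an FDR below 0.05, where 24.1% of the genes tested fell and 24.0% rose. In DESeq2 6 fell and in limma 6. None rose in these tools or at an unadjusted p below 0.05 in edgeR. *Fh1* fell by 25.5% (log2 fold change −0.42 ± 0.04, FDR 9.01e-11), *Idh3a* fell by 24.1%, *Sdha* fell by 17.3%, *Sdhb* fell by 15.5% and *Cs* fell by 15.3%. *Mdh2* had −0.05 ± 0.04 (FDR 0.299). The median of the 8 was −0.24, against −0.0040 over all genes tested. The calls of *Ogdh* (−0.10 ± 0.04, FDR 0.0332) and *Suclg1* (−0.10 ± 0.04, FDR 0.0359) depended on the setting and on single libraries. With all libraries kept, that of *Ogdh* was lost with RLE size factors, without a filter, with genes of at least 50 mean counts, with the compared conditions alone and in limma (FDR 0.0502 to 0.0889). That of *Suclg1* was lost in DESeq2, with RLE, without a filter, with at least 50 mean counts and with the compared conditions alone (FDR 0.0515 to 0.140). That of *Ogdh* was lost without control replicate 1, control replicate 3 or any 1 of the LPS libraries (log2 fold change −0.10 to −0.08, FDR 0.0595 to 0.111). That of *Suclg1* was lost without control replicate 1, control replicate 2 or any 1 of the LPS libraries (−0.11 to −0.08, FDR 0.0555 to 0.177).

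With PIC against the control, which shares the control libraries, 7 of the 8 again fell and 0 rose, where 30.1% of the genes tested fell and 28.6% rose. In DESeq2 6 fell and in limma 7. None rose in these tools or at an unadjusted p below 0.05 in edgeR. *Idh3a* fell by 28.5% (−0.48 ± 0.04, FDR 1e-12), *Fh1* fell by 27.1%, *Sdha* fell by 18.9%, *Sdhb* fell by 17.5%, *Cs* fell by 9.57% and *Ogdh* fell by 9.01%. *Mdh2* had −0.06 ± 0.04 (FDR 0.204). The median of the 8 was −0.21, against −0.015 over all genes. Without PIC replicate 1 the *Ogdh* value was −0.09 (FDR 0.0687), and *Suclg1* (−0.10 ± 0.04, FDR 0.0328) was no longer called without control replicate 2 or any 1 of the PIC libraries (−0.10 to −0.07, FDR 0.0754 to 0.228). With all libraries kept, the *Suclg1* call was lost in the same settings as with LPS (FDR 0.0807 to 0.137). Scaling by total library size in place of TMM moved the median of all genes by −0.22 in this comparison and by −0.13 in PIC against LPS, and the values given here are relative to the TMM scaling.

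Compared directly, PIC and LPS differed for 1 of the 8 TCA members. *Cs* was higher with PIC (0.09 ± 0.04, FDR 0.0455), where 14.9% of the genes tested were higher and 12.8% lower. Under total library size its estimate was −0.03 and 7 of the 8 were called lower. With that scaling 985 of the 13691 genes tested were called higher and 4373 lower. No member was called lower with TMM, although 1 (*Idh3a*) had an unadjusted p below 0.05. DESeq2 and limma each called 1 higher and 0 lower. The *Cs* call was lost without any 1 of the LPS libraries, PIC replicate 2 or PIC replicate 3 (0.05 to 0.11, FDR 0.0525 to 0.341). *Acod1* was thus the gene of the 9 whose difference between the stimuli was largest.

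TBHQ alone was followed by a rise of 1 of the 8 TCA members, *Cs* (0.19 ± 0.04, FDR 7.81e-05), and a fall of 0, where 14.2% of the genes tested rose and 14.8% fell. *Suclg1* had −0.09 ± 0.04 and an unadjusted p of 0.0249 in edgeR (FDR 0.0766), and it was the 1 member that limma called lower, while DESeq2 called 0. *Mdh2* had 0.08 ± 0.04 (FDR 0.0909), and without TBHQ replicate 1 it was called at 0.11 (FDR 0.0326), which made 2 risen members.

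With TBHQ before LPS, 4 of the 8 TCA members were higher than with LPS alone and 0 were lower, where 11.7% of the genes tested were higher and 12.2% lower. In DESeq2 4 were higher and in limma 5. None was lower in these tools or at an unadjusted p below 0.05 in edgeR. *Cs* was higher by 16.5% (0.22 ± 0.04, FDR 9.77e-06), *Ogdh* by 14.3% (0.19 ± 0.04, FDR 0.000133), *Idh3a* by 11.6% and *Mdh2* by 8.70%. *Fh1* had 0.10 ± 0.04 with an FDR of 0.0689, although its libraries did not overlap. *Sdha* had −0.03 ± 0.03 (95% interval −0.10 to 0.04), *Suclg1* −0.00014 ± 0.04 (−0.08 to 0.08) and *Sdhb* 0.06 ± 0.05. The *Idh3a* value was 0.12 without LPS+TBHQ replicate 2 (FDR 0.0527), and the *Mdh2* call was lost without LPS replicate 2 or LPS+TBHQ replicate 3 (0.09 to 0.10, FDR 0.0976 to 0.130).

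With TBHQ before PIC, 5 of the 8 were higher than with PIC alone and 0 were lower, where 15.8% of the genes tested were higher and 15.5% lower. In DESeq2 5 were higher and in limma 5. None was lower in these tools or at an unadjusted p below 0.05 in edgeR. *Ogdh* was higher by 15.6% (0.21 ± 0.04, FDR 3.43e-05), *Idh3a* by 11.7%, *Sdhb* by 11.1%, *Mdh2* by 9.52% and *Cs* by 7.93%. *Sdha* had −0.01 ± 0.03 (95% interval −0.08 to 0.06) and *Suclg1* 0.02 ± 0.04 (−0.06 to 0.10). *Fh1* had 0.08 ± 0.04 with an FDR of 0.141, although its libraries did not overlap in FPKM. It was called with total library size (0.15, FDR 0.00456). This count leaned on single libraries. Without PIC replicate 1 it was 1 of 8, with *Idh3a* at 0.12 (FDR 0.0594), *Mdh2* at 0.11 (FDR 0.0563), *Sdhb* at 0.10 (FDR 0.193) and *Cs* at 0.06 (FDR 0.294). Without PIC+TBHQ replicate 1 it was 3 of 8. The *Cs* call was also lost without PIC replicate 2 (FDR 0.110), and the *Sdhb* call without PIC replicate 3 (FDR 0.128).

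The TBHQ effect with PIC minus that with LPS was called for 0 of the 8 TCA members in edgeR, where 0.825% of the genes tested were called higher and 1.01% lower. Before adjustment 1 had a p below 0.05, *Cs* (−0.11 ± 0.05, FDR 0.309), and DESeq2 and limma called 0. The median TBHQ effect over the 8 was 0.11 with LPS and 0.12 with PIC, against 0.0023 and 0.0089 over all genes tested. A missed threshold does not show that the effects were alike.

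**Figure D3:**
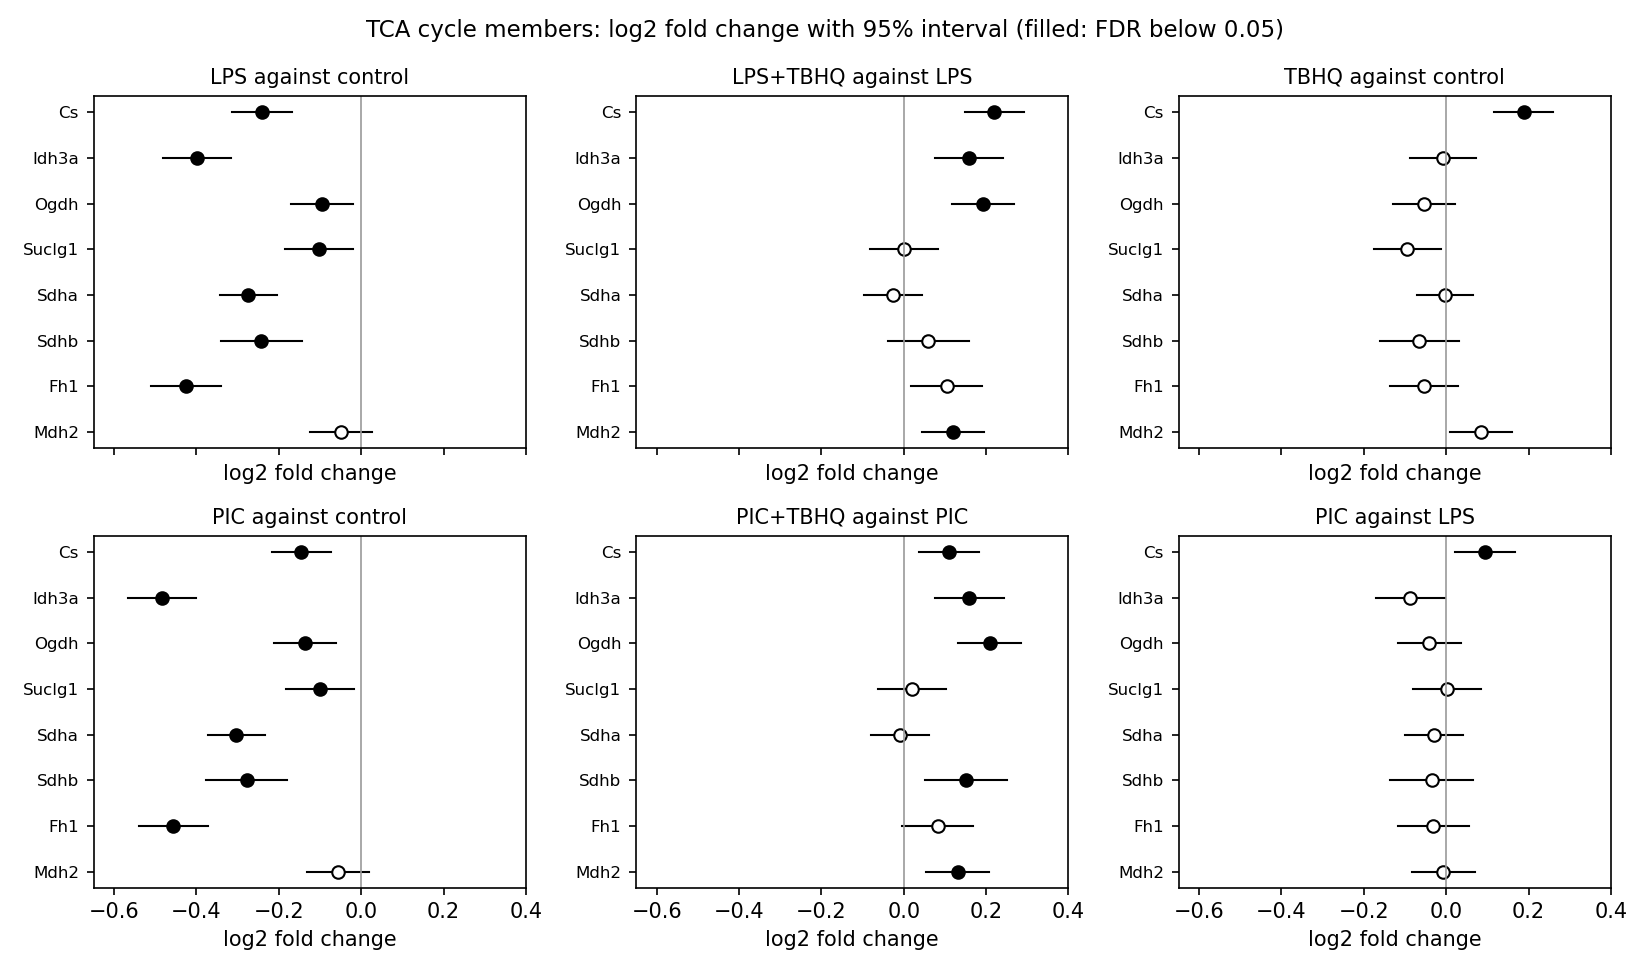
Log2 fold change of the 8 TCA cycle members in 6 comparisons, with 95% intervals (lines); filled points have an FDR below 0.05 in edgeR. With LPS and with PIC 7 of 8 points are filled below 0, and after TBHQ 4 (LPS) and 5 (PIC) are filled above 0 while *Sdha* and *Suclg1* stay near 0.

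Partner subunits and other enzymes of the cycle were read from a list of 9 genes. With LPS 7 of the 9 fell and 1 rose, where 24.1% of the genes tested fell and 24.0% rose, and with PIC 6 fell and 2 rose, where 30.1% fell and 28.6% rose. *Idh2*, the NADP-dependent isocitrate dehydrogenase of mitochondria, fell by 0.45 on the log2 scale with LPS and by 0.58 with PIC. *Sdhd*, a membrane anchor of succinate dehydrogenase, fell by 0.39 and 0.35, *Suclg2*, the GTP-forming beta subunit of succinyl-CoA ligase, by 0.36 and 0.42, and *Sucla2*, the ATP-forming one, by 0.20 and 0.13. *Idh3g* fell by 0.25 and 0.21 and *Sdhc* by 0.19 and 0.12. *Idh3b* fell by 0.14 with LPS and was not called with PIC (−0.05, FDR 0.307). Its difference between PIC and LPS was not called either (0.09, FDR 0.0769). The genes that rose were *Dld*, the E3 subunit shared by several dehydrogenase complexes, by 0.15 with LPS and 0.20 with PIC, and *Dlst*, the E2 subunit of the oxoglutarate dehydrogenase complex, by 0.12 with PIC. Under total library size in place of TMM the values with PIC were −0.02 for *Dld* and −0.10 for *Dlst*, and the call of *Dld* with LPS was lost. TBHQ before the stimulus raised *Idh2*, by 0.15 with LPS and 0.20 with PIC, and 1 gene was lower, *Sucla2* with PIC (−0.13). Of all genes tested 11.7% were higher and 12.2% lower with TBHQ before LPS, and 15.8% higher and 15.5% lower before PIC. TBHQ alone changed 1 of the 9, *Sucla2* (−0.16), where 14.2% of the genes tested rose and 14.8% fell. PIC against LPS changed 1, *Idh2* (−0.13), where 14.9% were higher and 12.8% lower. *Sdhc* with PIC was not called in DESeq2. The calls of *Sucla2* with PIC, *Sucla2* in PIC+TBHQ against PIC and *Idh2* in PIC against LPS were lost in DESeq2, without a filter, with the compared conditions alone and in further settings.

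Of 13 genes for the entry of pyruvate, 12 were tested, of which 4 fell with LPS (24.1% of all genes tested), and 6 fell and 1 rose with PIC (30.1% and 28.6%). *Pcx*, the pyruvate carboxylase that refills oxaloacetate, had a mean of 4.19 ± 0.18 FPKM in control, 4.15 ± 0.36 in LPS and 3.25 ± 0.37 in PIC libraries, and 7.96 ± 0.22 in LPS+TBHQ and 6.18 ± 0.37 in PIC+TBHQ libraries. Its level was higher in the 3 comparisons of TBHQ with its absence, with log2 fold changes of 0.52 ± 0.08 for TBHQ alone, 0.94 ± 0.08 before LPS and 0.93 ± 0.09 before PIC. *Pdk1*, a kinase that inhibits pyruvate dehydrogenase, fell with TBHQ alone (−0.74 ± 0.06), before LPS (−0.30 ± 0.06) and before PIC (−0.25 ± 0.06). With TBHQ alone 2 of the 12 rose and 6 fell (14.2% and 14.8% of all genes tested), and before LPS and before PIC 1 was higher and 2 lower (11.7% and 12.2%, and 15.8% and 15.5%). *Pdk2* was called lower with PIC than with LPS (−1.43 ± 0.49) at a level of at most 0.406 FPKM in every library. DESeq2 gave it no FDR there, and the call was lost without a filter (FDR 0.0694). *Pdk2* was also among the 6 that fell with PIC against the control (−1.22 ± 0.50, FDR 0.0347). That call was lost in DESeq2 (FDR 0.104) and without a filter (FDR 0.0904).

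Of 8 genes for the entry of glutamine and for malic enzymes, 7 were tested. With LPS 5 fell and 2 rose (24.1% and 24.0% of all genes tested), and with PIC 3 fell and 2 rose (30.1% and 28.6%). With TBHQ alone 4 rose and 1 fell (14.2% and 14.8%). With TBHQ before LPS 4 were higher and 0 lower (11.7% and 12.2%), and before PIC 4 were higher and 1 lower (15.8% and 15.5%). *Me1*, the cytosolic malic enzyme that makes NADPH and a known NRF2 target, rose with TBHQ alone (0.57 ± 0.05), LPS (0.42 ± 0.05) and PIC (0.57 ± 0.05), and further with TBHQ before LPS (0.44 ± 0.05) and PIC (0.29 ± 0.05). Of 9 cytosolic counterparts and assembly factors, 8 were tested, of which 2 fell and 1 rose with LPS (24.1% and 24.0% of all genes tested) and 3 fell and 1 rose with PIC (30.1% and 28.6%). *Mdh1*, the cytosolic malate dehydrogenase, fell by 0.48 on the log2 scale with LPS and by 0.66 with PIC, while the mitochondrial *Mdh2* was called in neither with TMM but lower in both with total library size (−0.14 and −0.27). *Sdhaf3*, an assembly factor of succinate dehydrogenase with a mean of 1.14 ± 0.11 FPKM in the control, fell by 0.52 and 0.62. With TBHQ alone 3 of the 8 fell and 2 rose (14.8% and 14.2%), of which *Mdh1* fell by 0.23 and *Sdhaf3* fell by 0.60.

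Of 7 genes for carriers and the handling of itaconate, 5 were tested, of which 2 fell with LPS (24.1% of all genes tested) and 3 with PIC (30.1%). *Slc25a10*, the mitochondrial dicarboxylate carrier, fell by 0.59 on the log2 scale with LPS and by 0.89 with PIC, and it was higher with TBHQ before LPS (0.32 ± 0.06) and before PIC (0.39 ± 0.07). *Clybl*, an enzyme of the pathway that degrades itaconate, had 4.66 ± 0.21 FPKM in the control and fell by 0.69 with LPS, by 0.70 with PIC and by 0.46 with TBHQ alone, where DESeq2 did not call it (FDR 0.0534). With TBHQ alone 2 of the 5 fell (14.8% of all genes tested). With TBHQ before LPS 1 was higher (11.7%), and before PIC 2 (15.8%). The itaconate transporter *Slc13a3* had 0 to 6 counts in a library and was not tested, and *Oxgr1*, a receptor reported to bind itaconate, had 0 counts in all 18 libraries.

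Of the 8 macrophage markers 4 were higher and 3 lower with LPS (24.0% and 24.1% of all genes tested), and 5 higher and 2 lower with PIC (28.6% and 30.1%). *Adgre1* (F4/80) rose by 1.45 on the log2 scale with LPS and 1.86 with PIC, *Itgam* (CD11b) by 0.96 and 1.25 and *Cd14*, a coreceptor for LPS, by 0.63 and 1.02. *Csf1r*, the receptor for the growth factor CSF1, fell by 0.75 and 0.85, and *Ptprc* (CD45) rose by 0.51 with PIC. With TBHQ alone 1 marker was higher and 3 lower (14.2% and 14.8% of all genes tested), among them *Adgre1*, which fell by 0.53, and *Itgam*, which fell by 0.41. With TBHQ before LPS 3 were higher and 3 lower (11.7% and 12.2%), and before PIC also 3 and 3 (15.8% and 15.5%). Their part in the levels of *Acod1* and the TCA members was not tested.

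The 5 genes whose log2 levels over the 18 libraries were most like that of *Acod1*, among 10450 compared, were *Sema3e* (Pearson r 0.999), *Tnfrsf1b* (0.997), *Procr* (0.996), *Sqstm1* (0.995) and *Cxcl2* (0.993). These r values describe likeness over libraries that fall into 6 conditions, and they carry no test.

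RefSeq promoter windows of GRCm38.p6, 250 bases before to 50 after the gene's start, were at hand for 8 of the 9 genes. The windows of *Acod1*, whose mRNA rose most, and of *Sdha* and *Sdhb*, which encode partner subunits and fell together, are shown 5′ to 3′ on the gene's strand, with motif matches on either strand in capitals. The windows are chr14:103046762-103047061 (plus strand), chr13:74350191-74350490 (minus strand) and chr4:140961021-140961320 (plus strand). They cannot be set beside the position of *Acod1* given above, since the authors' files hold other positions than this build.
*Acod1*: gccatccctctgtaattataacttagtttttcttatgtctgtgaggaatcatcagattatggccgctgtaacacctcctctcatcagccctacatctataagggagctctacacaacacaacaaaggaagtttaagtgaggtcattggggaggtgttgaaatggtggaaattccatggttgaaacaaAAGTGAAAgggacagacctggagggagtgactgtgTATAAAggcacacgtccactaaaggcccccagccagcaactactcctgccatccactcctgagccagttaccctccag
*Sdha*: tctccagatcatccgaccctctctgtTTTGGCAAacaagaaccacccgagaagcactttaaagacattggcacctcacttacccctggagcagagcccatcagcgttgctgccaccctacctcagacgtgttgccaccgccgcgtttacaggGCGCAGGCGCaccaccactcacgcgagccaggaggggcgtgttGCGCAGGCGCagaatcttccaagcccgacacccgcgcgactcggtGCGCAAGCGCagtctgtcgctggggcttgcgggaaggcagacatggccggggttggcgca
*Sdhb*: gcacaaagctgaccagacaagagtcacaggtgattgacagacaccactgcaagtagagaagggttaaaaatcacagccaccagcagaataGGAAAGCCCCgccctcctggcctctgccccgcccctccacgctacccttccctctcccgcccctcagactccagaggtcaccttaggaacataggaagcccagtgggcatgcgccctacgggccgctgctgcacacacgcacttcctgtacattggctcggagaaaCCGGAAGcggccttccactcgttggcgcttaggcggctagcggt
In *Acod1* the capitals mark AANNGAAA, a part of the interferon response element, which was found in 23.9% of 32851 promoter windows, and TATAAA, the TATA box, found in 13.6%. *Acod1* was the 1 gene of the 8 with TATAAA, and AANNGAAA was also matched in *Cs* and in *Ogdh*. *Ogdh* has several windows, and its match lies in windows 5 and 6, which overlap and hold the same stretch. The shares given are per window, so a gene with several windows has more chances of a match. In *Sdha* the capitals mark TTGCNNAA, a C/EBP motif found in 10.8% of windows and also matched in *Ogdh*. They also mark 3 matches of the NRF1 motif, found in 4.6%. In *Sdhb* they mark the NF-kB motif, found in 4.5% and also matched in *Ogdh*, and CCGGAAG, an ETS motif found in 8.9%. TGACNNNGC, the core of the antioxidant response element, was found in 12.4% of windows and in none of the 8 genes' windows. No matches of different motifs overlapped in the windows shown. A match describes letters in the window and is neither a site nor a cause.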

How the data were processed

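The authors sequenced strand-specific poly(A) libraries and, per the submitters' processing notes, used HISAT2 2.0.5, featureCounts 1.5.0-p3 and StringTie 1.3.3b. They deposited raw counts per gene. The deposited FPKM are the authors' counts per gene length and library total, times a constant for each library (0.943 to 1.12). The build is written as GRCm38/mm39, and gene positions are those of the authors' files. Promoters came from RefSeq.

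Counts were read with Python 3.11.15 and tested with edgeR 4.0.16 in R 4.3.3 (filterByExpr, TMM, glmQLFit, glmQLFTest), 1 coefficient per condition over 18 libraries. FDR is the Benjamini-Hochberg value over 13691 genes, called below 0.05. The SE is the log2 fold change over the square root of F. Alternatives used DESeq2 1.42.0 and limma 3.58.1. The scripts were tested on simulated data. Levels are mean ± SD of FPKM.

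The members and lists were chosen with earlier results of these data known. Named were the 9 genes, 9 other TCA genes, of each other list those with an FDR below 0.05 and a log2 fold change beyond 0.5 in any comparison (at most 6), and the 5 most like *Acod1* among genes with a mean of at least 50 counts. Of the members' 50-base words, 2.01% for *Cs* (mostly in *Csl*), 0.258% for *Suclg1* and 0% for the rest occur in another gene. 1 planned gene is not reported here. Genes overlapping *Cs*, *Sdha* and *Fh1* held at most 0.389% of their counts.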

Additional observations from a re-analysis of the deposited data

Results flagged for a closer look

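*Ptprc*, the pan-leukocyte marker CD45, had a TBHQ effect that differed between the stimuli in edgeR. The effect with PIC minus that with LPS was −0.21 ± 0.05 on the log2 scale (FDR 0.0296), from −0.31 ± 0.04 in PIC+TBHQ against PIC and −0.10 ± 0.04 in LPS+TBHQ against LPS. Mean levels were 14.9 ± 0.2 FPKM in LPS and 20.3 ± 0.5 in PIC libraries, and 13.9 ± 0.5 in LPS+TBHQ and 16.3 ± 0.5 in PIC+TBHQ libraries (SD, n = 3). The call was lost with total library size and in limma.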

How the results depend on the processing

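In the settings tried, the direction of *Acod1* held in all 7 comparisons and its calls against the control, between the stimuli and in PIC+TBHQ against PIC were kept. Its log2 fold change ran from 3.98 to 4.09 with LPS, 5.002 to 5.25 with PIC and −0.33 to −0.24 in PIC+TBHQ against PIC. Leaving out 1 library gave 3.98 to 4.23, 5.13 to 5.38 and −0.34 to −0.30. For TBHQ alone *Acod1* ran from 0.87 to 0.89 over the settings and from 0.79 to 1.04 without 1 library. In LPS+TBHQ against LPS it became called without a filter on low counts (−0.11), with the replicate block (−0.13) and with the compared conditions fitted alone (−0.13), and the difference between the TBHQ effects without a filter (−0.20) and with those conditions alone (−0.19). The cause was not tested.

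The number of TCA members lower was 5 to 8 with LPS and 6 to 8 with PIC over the settings, and 5 to 6 and 5 to 7 without 1 library. With limma 1 member was lower with TBHQ alone, at either pseudocount. In PIC against LPS the higher count was 0 with total library size, without a filter and with the compared conditions alone. It was also 0 at an FDR below 0.01, and 0 to 1 without 1 library. Total library size gave 7 lower, where 4373 of the 13691 genes tested were lower. In PIC+TBHQ against PIC 3 were higher at an FDR below 0.01 and 1 to 5 without 1 library. Total library size gave 6 higher, where 3398 of all genes tested were higher. In LPS+TBHQ against LPS 3 to 5 were higher over the settings and 3 to 4 without 1 library. With TBHQ alone 1 to 2 were higher without 1 library. When 1 library is left out, the model takes the spread from all conditions.

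Most sign changes concerned small values that were never called. With total library size the exceptions were *Cs* in PIC against LPS and *Dld* and *Dlst* in PIC against control, which the main fit called higher (*Dlst* was then called lower), and *Suclg1* in PIC against LPS, which became called lower. The cause was not tested. "Difference" is the TBHQ effect with PIC minus that with LPS. In DESeq2 the values were Suclg1 0.00063 (LPS+TBHQ/LPS), Mdh2 0.0025 (PIC/LPS), Sdha 0.0023 (TBHQ/control), Idh3a −0.013 (difference) and Mdh2 −0.0025 (difference). With RLE size factors the values were Mdh2 0.0035 (PIC/LPS), Sdha 0.0018 (TBHQ/control), Idh3a −0.015 (difference) and Mdh2 −0.0039 (difference). With the compared conditions fitted alone the values were Idh3a −0.013 (difference) and Mdh2 −0.0022 (difference). In limma on log2(FPKM + 0.1) the values were Suclg1 0.0016 (LPS+TBHQ/LPS), Mdh2 0.0031 (PIC/LPS), Idh3a −0.011 (difference) and Mdh2 −0.0023 (difference). In limma on log2(FPKM + 1) the values were Suclg1 0.0016 (LPS+TBHQ/LPS), Mdh2 0.0030 (PIC/LPS), Idh3a −0.011 (difference) and Mdh2 −0.0022 (difference). With genes of at least 50 mean counts the values were Sdha 0.0023 (TBHQ/control), Idh3a −0.012 (difference) and Mdh2 −0.0017 (difference). Without a filter the values were Suclg1 0.015 (LPS+TBHQ/LPS), Idh3a −0.017 (difference), Ogdh −0.0018 (difference) and Mdh2 −0.0062 (difference). With total library size the values were Suclg1 0.025 (LPS+TBHQ/LPS), Cs −0.035 (PIC/LPS), Suclg1 −0.13 (PIC/LPS), Dlst −0.097 (PIC/control), Dld −0.021 (PIC/control), Sdha 0.061 (PIC+TBHQ/PIC) and Fh1 0.023 (difference). Without 1 library the values that changed sign ran over Sdha −0.013 to 0.0062 (TBHQ/control), Suclg1 −0.0043 to 0.024 (PIC/LPS), Sdhb −0.099 to 0.0079 (PIC/LPS), Fh1 −0.053 to 0.0067 (PIC/LPS), Mdh2 −0.039 to 0.033 (PIC/LPS), Suclg1 −0.0051 to 0.011 (LPS+TBHQ/LPS), Suclg1 −0.013 to 0.027 (PIC+TBHQ/PIC), Sdha −0.042 to 0.0089 (PIC+TBHQ/PIC), Idh3a −0.043 to 0.039 (difference), Ogdh −0.033 to 0.037 (difference), Suclg1 −0.014 to 0.029 (difference), Sdha −0.016 to 0.035 (difference) and Mdh2 −0.041 to 0.033 (difference).

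For the 22 other named genes, 79 called values were tried in the same settings, chosen after seeing the data, and of the results 1162 kept direction and call, 103 lost the call and 2 turned. Over all genes the difference was called for 113 higher and 138 lower, against 380 without a filter and 147 in limma on log2(FPKM + 0.1). Without 1 library the count ran from 160 (LPS+TBHQ replicate 2) to 354 (LPS replicate 2). With total library size the calls were 2454 higher and 4558 lower with LPS (3283 and 3306 with TMM), 2379 and 6635 with PIC (3917 and 4120), 985 and 4373 in PIC against LPS (2035 and 1752), 2061 and 1401 in LPS+TBHQ against LPS (1601 and 1673), 3398 and 1436 in PIC+TBHQ against PIC (2167 and 2118), and 235 and 74 for the difference. With RLE size factors that last split was 95 and 176.

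The replicate numbers carry no stated pairing. Over 45 pairs of libraries with the same number in different conditions, the correlation of their deviations from the condition mean was −0.070 to 0.14 (median 0.026). In 2 pairs it was above 0.1, and 11 of 18 libraries lay closest to their own number. Deviations within a condition depend on each other, so the 18 are not independent. Whether that count goes beyond chance was not tested, and it does not describe the design. With the replicate block, 4036 genes were called for TBHQ against control, 6609 for LPS, 8063 for PIC and 274 for the difference. Depth limits mainly the low genes, where 3 counts lie at 0.159 to 0.208 on the CPM scale.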
